A study of Danio rerio with 4 samples.

Results

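The cadherins and protocadherins described here are the 82 genes of 31953 in the table whose symbol is cdh followed by a digit or starts with pcdh, leaving out cdh5, the cadherin of blood vessels. They comprise 18 cadherin and 64 protocadherin rows. The cells came from the pharyngeal arches of zebrafish (Danio rerio) embryos at 36 hours post-fertilization (hpf). They were sorted for 2 reporters, fli1a:GFP, which marks arch crest and vessels, and sox10:DsRed, which marks cells of neural crest origin. Embryos mutant for both nr2f2 and nr2f5, picked by ocular coloboma, gave 2 libraries, mutant 1 and mutant 2. Another 1 library came from embryos that carry sox10:Gal4 with UAS:Nr2f5, in which Nr2f5 is driven where sox10 is active, and the control library came from embryos with sox10:Gal4 alone. All 4 libraries carry both reporters. The embryos of the last 2 groups were genotyped from fin biopsies at 24 hpf, and neither the driver nor a biopsy is given for the mutants. Each library pools many embryos (37 and 84 for the mutant replicates, 84 for UAS:Nr2f5 and 69 for the control), and the labels do not describe the mutant alleles. Cells numbered 18858 and 30655 for the mutant replicates, in an order not tied to a library, 56866 for UAS:Nr2f5 and 86517 for the control. The labels also record 28.5 °C until 27 hpf and 22 °C later, and which groups this covers is not stated here. Whether the mutant libraries stem from separate clutches is not given, so that p-values measure only the spread between these libraries, which may be technical.

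Classical cadherins are calcium-dependent adhesion proteins. Each binds mostly to its own kind on the neighbouring cell and is tied to actin inside the cell by catenins. Tissues can be told apart by the cadherin they carry, with E-cadherin (cdh1) in epithelia, N-cadherin (cdh2) in neural tissue and mesenchyme, cadherin 11 in mesenchyme and bone-forming cells, and M-cadherin (cdh15) in skeletal muscle. Neural crest cells are known for changing their cadherins as they leave the neural epithelium and become mesenchyme. Protocadherins share the extracellular repeats but not the catenin-binding tail. The delta protocadherins are separate genes, while the clustered ones join many variable first exons to a few shared constant exons and are best known from neurons, where they label single cells.

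Values are read as RPM, that is reads per 1000000 reads sequenced in a library. The deposited columns do not state this scale. The spacing of their low values gives the value of 1 read, while the scale of 1000000 is assumed. The columns themselves sum to 151959 in mutant 1, 158345 in mutant 2, 147940 in the library labelled UAS:Nr2f5 and 149189 in the control. One read was worth 0.0287 RPM in mutant 1, 0.0441 in mutant 2, 0.0987 in the library labelled UAS:Nr2f5 and 0.0334 in the control, which implies 5286229, 3590905, 1498321 and 4467228 reads in genes. The values are not divided by gene length, so levels are compared between libraries and not between genes. All 12 early neural crest genes found in the table were above 0 in every library. They include nr2f5, which therefore also enters their sum and the scaling to them given below. The targeted genes check the labels only in part. nr2f5 was at 12.2 and 14.7 RPM in the mutants, 30.3 RPM in the library labelled UAS:Nr2f5 and 28.8 RPM in the control, so the transgene's gain was not seen at that gene. The mutants held 38.9 and 30.9 RPM of nr2f2, against 28.1 RPM in the library labelled UAS:Nr2f5 and 41.4 RPM in the control. Every direction below that involves this library rests on its label.

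Of the 82 members, 38 averaged 1 RPM or more across libraries and were tested, and 44 lay below that filter. The 44 had means of 0.0167 to 0.882 RPM, and the 3 highest of them were pcdh1g14, pcdh1g30 and pcdh10a. The 2 kinds of gene differed in how they were counted. Of the 34 members that are single genes, 33 had whole numbers of reads in all 4 libraries (within 0.02 read), the exception being pcdh19. Of the 48 clustered protocadherins only pcdh1g13 did. In the RefSeq annotation of GRCz12tu, all 18 pcdh1 cluster genes and all 17 pcdh2 cluster genes that could be matched overlapped another member, and 0 of 32 matched single genes did. Values of clustered genes are therefore uncertain one by one, and they are given after the single genes.

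The cadherin genes cdh6 and cdh11 and the delta protocadherin gene pcdh18a stood highest in both mutants. The epithelial gene cdh1 and the muscle gene cdh15 stood lowest there and highest in the library labelled UAS:Nr2f5. Not all crest and mesenchyme cadherins followed, since cdh2 was lowest in both mutants and cdh7 lay below the control there. Nor were these orders particular to those genes. The brain gene cdh10a and the delta protocadherin gene pcdh10b were also highest in both mutants, and pcdh1a and pcdh11 had the order of cdh1. In the mutants, 0 of 38 tested members passed limma against the control, where 1.04% of all 11391 genes did (0.0263% higher and 1.01% lower), while 13 of 38 had an unadjusted p under 0.05. By size on the log2(RPM + 1) scale, 6 of 38 were at least 2-fold lower in both mutants, where 5.36% of all genes were. The 6 were pcdh1a, pcdh1a4, pcdh1g32, pcdh2ab2, pcdh7a and cdh1. Without the control, pcdh2ab2 and pcdh7a would lie below the filter, so their direction is partly set by it. The added 1 RPM draws low values together, so ratios of plain RPM can be larger. At least 2-fold higher in both were 0 members and 0.579% of all genes, which makes 5.93% of all genes in either direction. Of the 38, 12 lay above the control and 26 below, where 53.7% of all genes lay above. Their median log2 difference was −0.35 against 0.03 over all genes, and −0.21 over the 18 tested members with whole reads. Against the library labelled UAS:Nr2f5, 15 of 38 members passed in the mutants (39.5%, where 20.1% of all genes did). Of these 5 rose, where 11.2% of all genes rose, and 10 fell, where 8.92% of all genes fell. The filter averages over all libraries, so a low gene can pass it through the group where it is high. Among those that fell, cdh15, pcdh1a, pcdh11, pcdh2ab6 and pcdh2ac averaged 1.28 to 1.82 RPM. They would lie below the filter without the library labelled UAS:Nr2f5. Of those that rose, cdh10a and pcdh1g18 would lie below it without the mutants. The directions of these genes are partly set by the filter. The median of the 38 was −0.27 against 0.17 over all genes, and of the opposite sign, 0.36, over the 18 with whole reads. By size on the log2(RPM + 1) scale, 14 of 38 were at least 2-fold apart in both mutants, where 18.8% of all genes were. Of the 14, 4 were higher (9.02% of all genes) and 10 lower (9.79% of all genes). The spread behind these tests has 1 residual degree of freedom, that of the mutant pair, and the lone libraries are taken to vary alike. Without the filter on low values 0 of 82 members passed against the library labelled UAS:Nr2f5, where 0 of all 22546 genes did. Of the 82, 27 had an unadjusted p under 0.05 there. Counts by unadjusted p, above and below, have no share over all genes beside them and are not read as a result about the members. Scaled to early neural crest genes 3 rose and 13 fell, where 2672 of 11539 genes passed in either direction. That scaling put the median over all genes at −0.46, against 0.17 in the main fit.

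Between the library labelled UAS:Nr2f5 and the control there is 1 library on each side and no test. By size, 10 of 38 members were at least 2-fold apart on the log2(RPM + 1) scale, where 16.0% of all genes were. Of these 5 were higher, where 6.79% of all genes were, and 5 were lower, where 9.17% were. Among the higher ones, cdh15 and pcdh2ab6 would lie below the filter without the library labelled UAS:Nr2f5. Among the lower ones, pcdh7a and pcdh2ab8 would lie below it without the control. The directions of these genes are partly set by the filter. Scaled to early neural crest genes, 9 were higher and 3 lower, and the median over all genes moved from −0.11 to 0.20. The share of all genes 2-fold apart under that scaling is not given, so these counts are not read as a result about the members. The median of the 38 was −0.04 against −0.11 over all genes, and −0.39 over the 18 with whole reads. The 2 comparisons with the control share that library, so the values of each are given side by side and not set against each other.

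**Figure D1:**
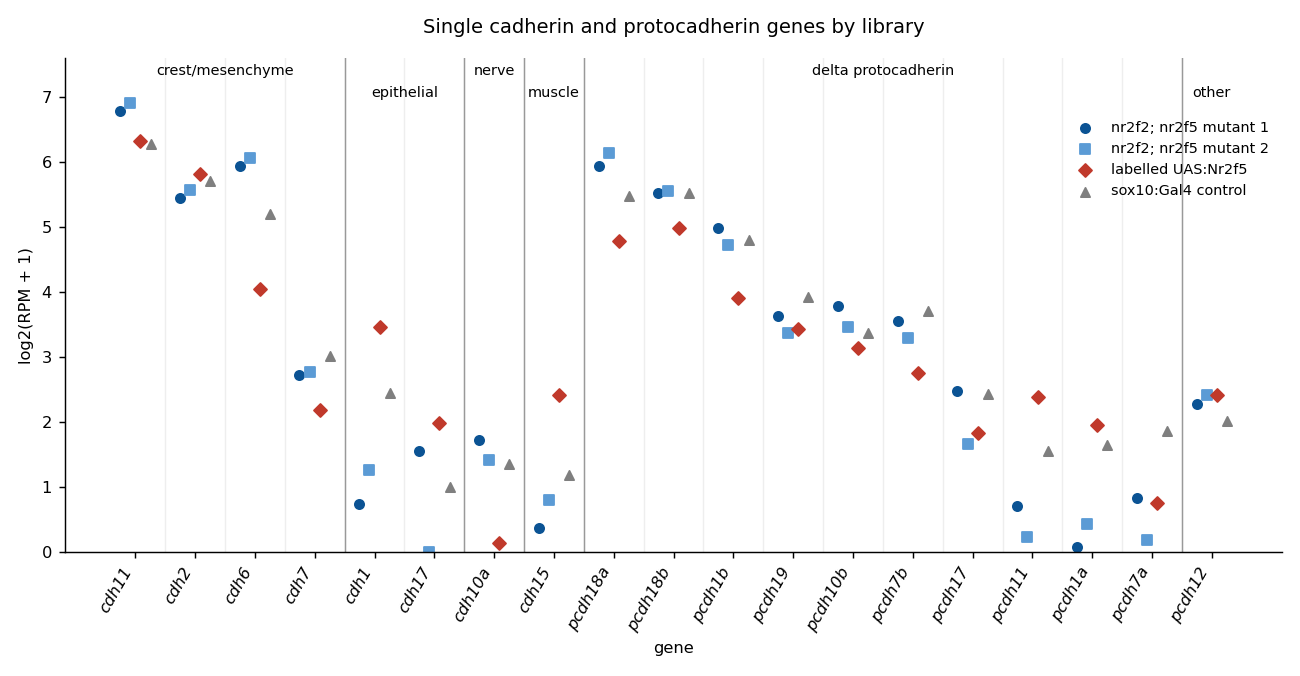
The 19 tested single genes are shown in each of the 4 libraries as log2(RPM + 1), grouped by the tissue or family they belong to, 1 point a library. The mutant points for cdh6 and pcdh18a lie above the control and the UAS:Nr2f5 point below it, and for cdh1 and cdh15 that order is turned round.

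Among the crest and mesenchyme cadherins, cdh6 differed most. It codes for cadherin 6, known in the chick from crest cells about to leave the neural tube and in zebrafish also from the kidney and retina. It was at 60.5 and 66.3 RPM in the mutants, 15.5 RPM in the library labelled UAS:Nr2f5 and 35.7 RPM in the control. The mutants were the highest and close to each other, and the library labelled UAS:Nr2f5 was the lowest. Against that library cdh6 rose 4.09-fold in the mutants (log2 difference 1.96 ± 0.17 SE, limma adjusted p = 0.00372). That call held in 7 of 8 alternative fits and was lost without the filter (adjusted p = 0.108), where 0 of all 22546 genes passed. Against the control the mutants' difference was 0.81 ± 0.17 and did not pass (limma adjusted p = 0.105), though it did when the filter was raised to 5 RPM (adjusted p = 0.00270). Under that filter 413 of 5294 genes passed against the control, where 118 of 11391 did in the main fit. cdh6 was 2.31-fold lower in the library labelled UAS:Nr2f5 than in the control (95% counting interval 1.95 to 2.74).

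cdh11, the mesenchymal cadherin that Xenopus crest cells need to migrate, drew the most reads of the family. It was at 110 and 120 RPM in the mutants, 79.7 RPM in the library labelled UAS:Nr2f5 and 77.2 RPM in the control. Both mutants lay above the other libraries, which were within counting error of each other (ratio 1.03, interval 0.951 to 1.118). The mutants' log2 difference was 0.57 ± 0.17 from the control (limma adjusted p = 0.217) and 0.52 ± 0.17 from the library labelled UAS:Nr2f5 (adjusted p = 0.0805), so cdh11 did not pass in either. The second of these passed when the filter was raised to 5 RPM (adjusted p = 0.0315), and was −0.19 when scaled to early neural crest genes. Under the 5 RPM filter 1921 of 5294 genes passed against the library labelled UAS:Nr2f5, where 2287 of 11391 did in the main fit. That larger share applies to each later call made with this filter.

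cdh2 (N-cadherin) was at 42.8 and 46.7 RPM in the mutants, 55.4 RPM in the library labelled UAS:Nr2f5 and 51.6 RPM in the control. The mutants' log2 difference was −0.20 ± 0.17 from the control (limma adjusted p = 0.699) and −0.30 ± 0.17 from the library labelled UAS:Nr2f5 (adjusted p = 0.240), so that it passed in neither. Scaled to early neural crest genes, the difference from the library labelled UAS:Nr2f5 was −1.01 and passed. cdh7, known in the chick from migrating crest cells, was at 5.63 and 5.82 RPM in the mutants, 3.55 RPM in the library labelled UAS:Nr2f5 and 7.08 RPM in the control. It passed in no comparison of the mutants, and was 1.99-fold lower in the library labelled UAS:Nr2f5 than in the control (interval 1.39 to 2.92).

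Ratios of reads within a library do not depend on how libraries are scaled. They share cdh2 as the denominator, so a difference in cdh2 or in the mix of cells enters each of them, and its part was not tested. There were 2.57 reads of cdh11 for each read of cdh2 in mutant 1 and 2.57 in mutant 2, 1.44 in the library labelled UAS:Nr2f5 and 1.498 in the control. For cdh6 the ratio was 1.41 and 1.42 in the mutants, 0.280 in the library labelled UAS:Nr2f5 and 0.693 in the control. For pcdh18a it was 1.42 and 1.497 in the mutants, 0.481 in the library labelled UAS:Nr2f5 and 0.843 in the control. For all 3 genes both mutants lay above the other libraries. The ratio of cdh7 to cdh2 was 0.132 and 0.125 in the mutants, 0.0642 in the library labelled UAS:Nr2f5 and 0.137 in the control, so the mutants lay next to the control there. For pcdh18b it was 1.06 and 0.992 in the mutants, 0.556 in the library labelled UAS:Nr2f5 and 0.878 in the control. For pcdh1b it was 0.715 and 0.547 in the mutants, 0.253 in the library labelled UAS:Nr2f5 and 0.521 in the control. Both mutants lay above the other libraries for pcdh18b and pcdh1b as well, so that order is not particular to cdh11, cdh6 and pcdh18a.

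**Figure D2:**
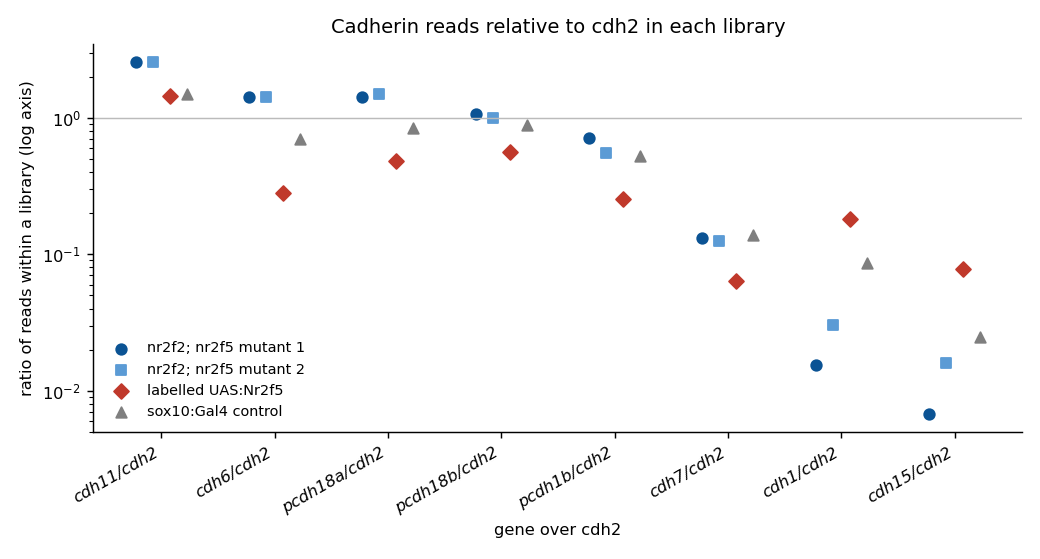
Reads of 8 genes divided by the reads of cdh2 in the same library, on a log axis, with 1 point for each of the 4 libraries. The mutants stand above the control for cdh11, cdh6 and pcdh18a, at 2.57, 1.41 and 1.42 in mutant 1. They also do so for pcdh18b and pcdh1b, and stand below it for cdh1 and cdh15.

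Of the 3 epithelial and ductal cadherins, cdh1 was lowest in the mutants, cdh17 was uneven between them and cdh16 had few reads. cdh1 (E-cadherin), the adhesion protein of epithelial sheets, was at 0.661 and 1.41 RPM in the mutants, 10.1 RPM in the library labelled UAS:Nr2f5 and 4.44 RPM in the control. The mutants were both below the control and the library labelled UAS:Nr2f5 was above it. Against that library cdh1 fell in the mutants, being 9.72-fold lower (log2 difference −2.47 ± 0.40 on the log2(RPM + 1) scale, limma adjusted p = 0.0153). Against the control it was 4.29-fold lower without passing (−1.44 ± 0.40, limma adjusted p = 0.185). It was 2.27-fold higher in the library labelled UAS:Nr2f5 than in the control (interval 1.73 to 2.96). There were 64.7 and 33.1 reads of cdh2 for each read of cdh1 in the mutants, 5.50 in the library labelled UAS:Nr2f5 and 11.6 in the control.

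cdh17, a cadherin of the zebrafish kidney duct and of intestine in mammals, was at 1.95 and 0 RPM in the mutants, 2.96 RPM in the library labelled UAS:Nr2f5 and 1.00 RPM in the control. Mutant 1 held 68 reads and mutant 2 held 0, which allows up to 0.132 RPM, so the mutants disagreed by more than any other whole-read member with at least 20 reads. cdh16, a kidney cadherin, lay below the filter at 0.287 and 0.265 RPM in the mutants, 0 in the library labelled UAS:Nr2f5 and 0.334 RPM in the control. Epidermal and endodermal markers stood in the same order as cdh1. The 22 genes found of that list summed to 303 and 256 RPM in the mutants, 2563 RPM in the library labelled UAS:Nr2f5 and 964 RPM in the control. Of its 14 tested genes, 3 fell and 0 rose in the mutants against the control, where 1.01% of all genes fell and 0.0263% rose. Against the library labelled UAS:Nr2f5, 11 fell and 1 rose, where 8.92% of all genes fell and 11.2% rose. The 2 genes of that list with the highest control values were the keratin genes krt4 and cyt1l. The part of these cells in the cdh1 values was not tested, and fewer cells of a type cannot be told apart from less RNA per cell in bulk libraries.

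The muscle cadherin gene cdh15, whose product joins myoblasts, was at 0.287 and 0.750 RPM in the mutants, 4.34 RPM in the library labelled UAS:Nr2f5 and 1.27 RPM in the control. The library labelled UAS:Nr2f5 was the highest and both mutants were below the control. Against that library cdh15 fell in the mutants (8.38-fold lower, log2 difference −1.83 ± 0.36, limma adjusted p = 0.0229), a call lost with a pseudocount of 0.1 (adjusted p = 0.0668). Against the control the mutants did not pass (−0.60 ± 0.36, limma adjusted p = 0.567). It was 3.42-fold higher in the library labelled UAS:Nr2f5 than in the control (interval 2.17 to 5.43). The counts behind these values are small, with 10 and 17 reads in the mutants, 44 in the library labelled UAS:Nr2f5 and 38 in the control. The 21 muscle markers, led in the control by the titin gene ttnb and the actin gene actc1b, summed to 50.6 and 79.5 RPM in the mutants, 6047 RPM in the library labelled UAS:Nr2f5 and 1898 RPM in the control. Of the 19 tested, 18 fell and 0 rose in the mutants against the control, where 1.01% of all genes fell and 0.0263% rose. Against the library labelled UAS:Nr2f5, 19 fell and 0 rose, where 8.92% of all genes fell and 11.2% rose. The part of the muscle markers in the cdh15 values was not tested.

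Of the 7 nerve and brain cadherins only cdh10a passed the filter. It belongs to the type II cadherins and is known from the brain in mammals. It was at 2.2997 and 1.68 RPM in the mutants, 0.0987 RPM in the library labelled UAS:Nr2f5, where that is 1 read, and 1.57 RPM in the control. Against that library cdh10a rose in the mutants (log2 difference 1.44 ± 0.33, limma adjusted p = 0.0341), and against the control it did not pass (0.21 ± 0.33, limma adjusted p = 0.859). It was 15.9-fold lower in the library labelled UAS:Nr2f5 than in the control (interval 2.72 to 641). Neuronal markers stood in the opposite order. The 16 found summed to 70.0 and 71.8 RPM in the mutants, 187 RPM in the library labelled UAS:Nr2f5 and 168 RPM in the control. Of 14 tested, 2 fell and 0 rose in the mutants against the control, elavl3 among those that fell, where 1.01% of all genes fell and 0.0263% rose. Against the library labelled UAS:Nr2f5, 9 fell and 2 rose, where 8.92% of all genes fell and 11.2% rose. The part of the neuronal markers in the cdh10a values was not tested.

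cdh4 (R-cadherin), a cadherin of the retina and brain, was at 0 and 0.176 RPM in the mutants, 1.18 RPM in the library labelled UAS:Nr2f5 and 0.802 RPM in the control, which is 0, 4, 12 and 24 reads. The order is that of the neuronal markers, at few reads. cdh18a was at 0.489 and 1.01 RPM in the mutants, 0 in the library labelled UAS:Nr2f5 and 0.167 RPM in the control. cdh8, cdh24a and cdh12a had reads in the control alone (20, 8 and 2), and cdh24b had 4 reads in mutant 1 alone. A count of 0 allows up to 0.0862 RPM in mutant 1, 0.132 in mutant 2, 0.296 in the library labelled UAS:Nr2f5 and 0.1002 in the control. The remaining single cadherins, below the filter, were cdh13, a cadherin held by a lipid anchor, and cdh23 (2 rows). With pcdh15a, cdh23 builds the tip links of hair cells, and pcdh15b is the paralogue of pcdh15a. These 5 rows were at or below 0.735 RPM in every library.

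The delta protocadherins are separate genes, and 10 of 12 passed the filter. pcdh18a, which codes for a member of the delta-2 group, was at 60.9 and 69.8 RPM in the mutants, 26.7 RPM in the library labelled UAS:Nr2f5 and 43.4 RPM in the control. As for cdh6, the mutants were the highest and the library labelled UAS:Nr2f5 the lowest. Against that library pcdh18a rose 2.45-fold in the mutants (log2 difference 1.26 ± 0.18, limma adjusted p = 0.0105), a call that was lost when scaled to early neural crest genes (0.56, adjusted p = 0.0655). Against the control it did not pass (0.57 ± 0.18, limma adjusted p = 0.224). It was 1.63-fold lower in the library labelled UAS:Nr2f5 than in the control (interval 1.43 to 1.86).

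Its paralogue pcdh18b was at 45.2 and 46.3 RPM in the mutants, 30.8 RPM in the library labelled UAS:Nr2f5 and 45.3 RPM in the control. The mutants' log2 difference from the control was 0.02 ± 0.16 and did not pass (limma adjusted p = 0.986). The library labelled UAS:Nr2f5 was the lowest, 1.47-fold below the control (interval 1.30 to 1.67). The mutants' difference from it passed with the filter at 5 RPM (0.56, limma adjusted p = 0.0255). Within each library there were 1.35 and 1.51 reads of pcdh18a for each read of pcdh18b in the mutants, 0.865 in the library labelled UAS:Nr2f5 and 0.959 in the control. The difference between the paralogues across groups was not tested.

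pcdh1b was at 30.6 and 25.5 RPM in the mutants, 14.02 RPM in the library labelled UAS:Nr2f5 and 26.9 RPM in the control. Against the library labelled UAS:Nr2f5 it rose 2.00-fold in the mutants (log2 difference 0.95 ± 0.20, limma adjusted p = 0.0275). That call was lost with median-ratio scaling, scaling to crest genes, no trend or no filter (adjusted p up to 0.343). Its paralogue pcdh1a ran the other way. pcdh1a was at 0.0575 and 0.353 RPM in the mutants, 2.86 RPM in the library labelled UAS:Nr2f5 and 2.14 RPM in the control, and it fell in the mutants relative to the library labelled UAS:Nr2f5 (−1.69 ± 0.33, limma adjusted p = 0.0227) without passing against the control (−1.39 ± 0.33, limma adjusted p = 0.128). The PCDH1 protein is known from airway epithelium in humans.

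pcdh7b, a relative of the protocadherin that binds ectodermal cells together in Xenopus, was at 10.7 and 8.86 RPM in the mutants, 5.73 RPM in the library labelled UAS:Nr2f5 and 12.2 RPM in the control. The library labelled UAS:Nr2f5 was the lowest, 2.12-fold below the control (interval 1.61 to 2.85). pcdh7a was at 0.776 and 0.132 RPM in the mutants, 0.691 RPM in the library labelled UAS:Nr2f5 and 2.64 RPM in the control, which was the highest. It was 3.82-fold lower in the library labelled UAS:Nr2f5 than in the control (interval 1.77 to 9.80), on 7 and 79 reads. Neither gene passed in the mutants in either comparison, though pcdh7b did against the library labelled UAS:Nr2f5 with the filter at 5 RPM (limma adjusted p = 0.04595).

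pcdh11, known from brain, was at 0.632 and 0.176 RPM in the mutants, 4.25 RPM in the library labelled UAS:Nr2f5 and 1.94 RPM in the control. It fell in the mutants relative to the library labelled UAS:Nr2f5 (−1.92 ± 0.36, limma adjusted p = 0.0216), and a pseudocount of 0.1 ended the calls of both pcdh11 (adjusted p = 0.0664) and pcdh1a (0.0628). pcdh19, a partner of N-cadherin in the zebrafish brain and an epilepsy gene in humans, was at 11.4 and 9.40 RPM in the mutants, 9.77 RPM in the library labelled UAS:Nr2f5 and 14.2 RPM in the control. pcdh10b was at 12.8 and 10.1 RPM in the mutants, 7.80 RPM in the library labelled UAS:Nr2f5 and 9.32 RPM in the control. pcdh17, known from synapses in the mouse, was at 4.57 and 2.16 RPM in the mutants, 2.57 RPM in the library labelled UAS:Nr2f5 and 4.41 RPM in the control. None of these 3 passed in the mutants in either comparison. pcdh10a and pcdh8, a gene active in early mesoderm, lay below the filter, pcdh8 at 2, 0, 0 and 1 reads in mutant 1, mutant 2, the library labelled UAS:Nr2f5 and the control.

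pcdh12, a protocadherin of blood vessels in mammals, was at 3.85 and 4.37 RPM in the mutants, 4.34 RPM in the library labelled UAS:Nr2f5 and 3.04 RPM in the control. The mutants' log2 difference was 0.34 ± 0.34 from the control (limma adjusted p = 0.759) and −0.07 ± 0.34 from the library labelled UAS:Nr2f5 (adjusted p = 0.907). It passed in neither comparison. Endothelial markers summed to 62.1 and 64.0 RPM in the mutants, 54.1 RPM in the library labelled UAS:Nr2f5 and 56.8 RPM in the control over the 14 found, of which fli1a, the gene of the sorting reporter, gave the highest control value. fli1a, which arch crest also expresses, carried that sum, at 51.5 and 48.1 RPM in the mutants, 18.0 RPM in the library labelled UAS:Nr2f5 and 38.3 RPM in the control. The other 13 genes stood in the reverse order, with sums of 10.6 and 15.9 RPM in the mutants, 36.1 RPM in the library labelled UAS:Nr2f5 and 18.5 RPM in the control, a split made after seeing the data. Of these, the vessel receptor gene kdrl was at 5.06 and 7.496 RPM in the mutants, 17.9 RPM in the library labelled UAS:Nr2f5 and 5.81 RPM in the control. The vessel cadherin gene cdh5 was at 1.35 and 1.59 RPM in the mutants, 3.75 RPM in the library labelled UAS:Nr2f5 and 3.71 RPM in the control. Early neural crest markers summed to 309 and 316 RPM in the mutants, 189 RPM in the library labelled UAS:Nr2f5 and 243 RPM in the control, the order that cdh6 and pcdh18a also showed. The sum includes nr2f5, which ran the other way. It was at 12.2 and 14.7 RPM in the mutants, 30.3 RPM in the library labelled UAS:Nr2f5 and 28.8 RPM in the control. Of the 12 crest markers tested, 0 passed limma in the mutants against the control, where 1.04% of all genes did. Against the library labelled UAS:Nr2f5, 6 rose and 1 fell, where 11.2% of all genes rose and 8.92% fell. The part of the crest markers in the cdh6 and pcdh18a values was not tested.

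**Figure D3:**
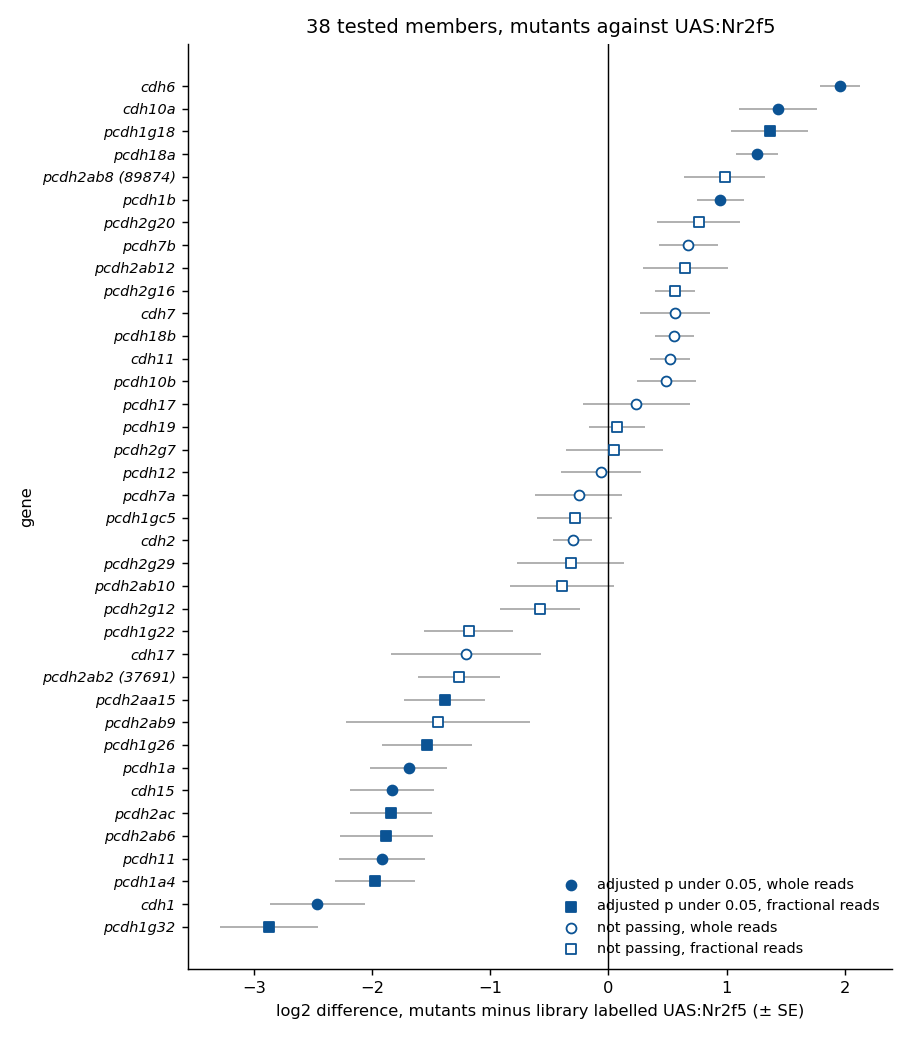
The log2 difference of the mutants (n = 2) minus the library labelled UAS:Nr2f5 (n = 1) for the 38 tested members, with bars for the SE from limma. Filled points passed at an adjusted p under 0.05, circles are genes with whole reads in all libraries and squares genes with fractional ones, and cdh6 at 1.96 and pcdh1g32 at −2.88 mark the ends.

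**Figure D4:**
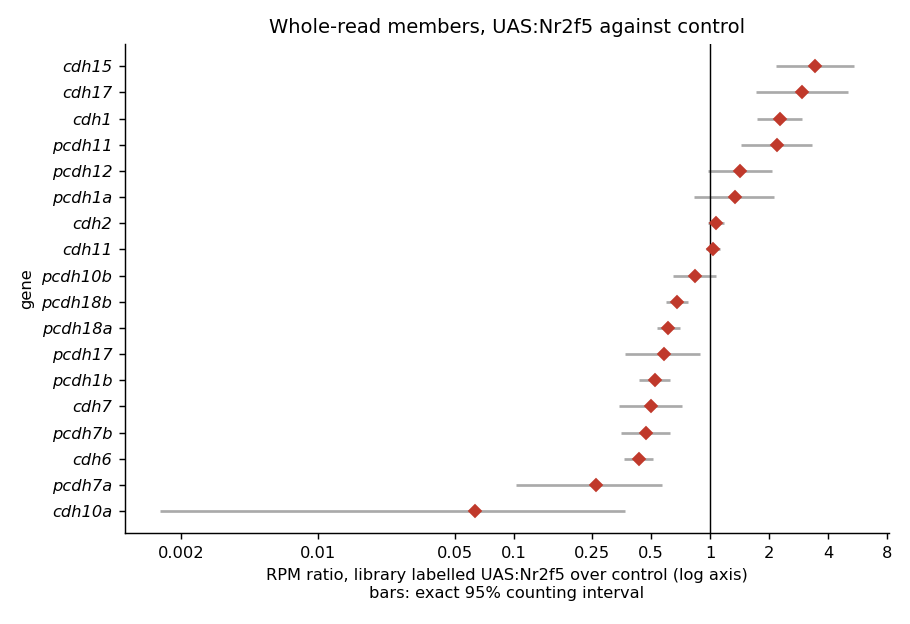
The ratio of RPM in the library labelled UAS:Nr2f5 over the control for the 18 tested members with whole reads, on a log axis, with exact 95% counting intervals that cover counting error only. cdh15 lies highest at 3.42 and cdh10a, with 1 read, lowest, and the intervals of cdh11 and cdh2 include a ratio of 1.

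The clustered protocadherins lie in a pcdh1 and a pcdh2 cluster, each with alpha and gamma genes, apart from the row pcdhb, which was at or below 0.0421 RPM in every library. Most of these rows did not hold whole numbers of reads in all libraries, so sums over each group were read first. Whether reads were shared out between overlapping genes was not tested. The pcdh1 alpha members summed to 1.35 and 0.529 RPM in the mutants, 5.04 RPM in the library labelled UAS:Nr2f5 and 3.54 RPM in the control. The pcdh1 gamma members summed to 13.1 and 13.3 RPM in the mutants, 23.4 RPM in the library labelled UAS:Nr2f5 and 21.7 RPM in the control. Both sums were lower in each mutant than in the other libraries.

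In the pcdh2 cluster, the alpha members summed to 16.8 and 10.7 RPM in the mutants, 25.5 RPM in the library labelled UAS:Nr2f5 and 17.8 RPM in the control. Both mutants were again the lowest, mutant 1 being close to the control. The pcdh2 gamma members summed to 59.3 and 61.6 RPM in the mutants, 44.5 RPM in the library labelled UAS:Nr2f5 and 45.9 RPM in the control. A single row, pcdh2g16, made up most of that sum, at 47.2 and 50.3 RPM in the mutants, 32.6 RPM in the library labelled UAS:Nr2f5 and 33.5 RPM in the control. It did not pass against the control (log2 difference 0.53 ± 0.17, limma adjusted p = 0.240) or against the library labelled UAS:Nr2f5 (0.56 ± 0.17, adjusted p = 0.0628), and scaled to early neural crest genes the second difference was −0.14, while with the filter at 5 RPM it passed (adjusted p = 0.0237). Without pcdh2g16 the gamma sums were 12.0 and 11.3 RPM in the mutants, 11.9 RPM in the library labelled UAS:Nr2f5 and 12.4 RPM in the control, and 2 of the 5 tested gamma members lay above the control in the mutants (median −0.34). The higher gamma sum of the mutants lay in that 1 row, which did not pass.

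**Figure D5:**
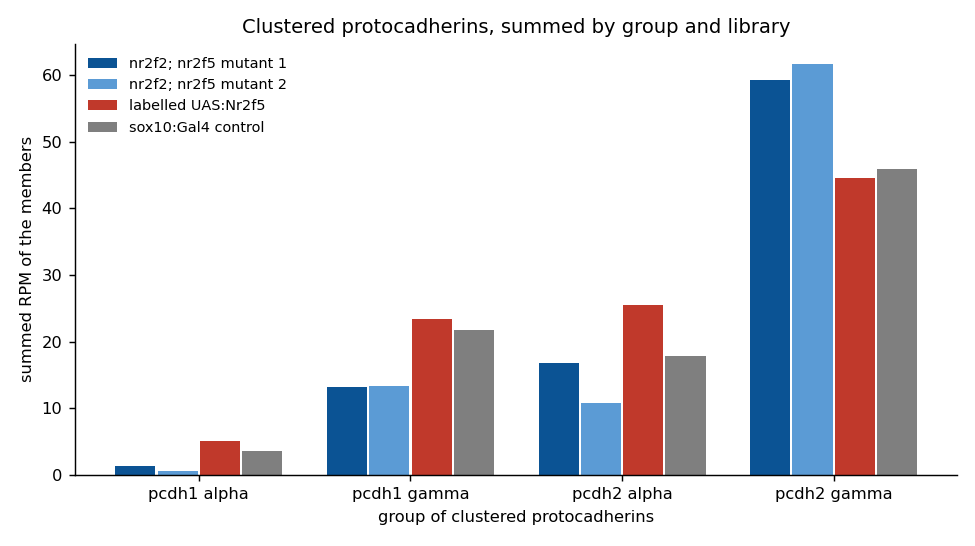
Summed RPM of the clustered protocadherin members in each of the 4 libraries, for the alpha and gamma groups of the pcdh1 and pcdh2 clusters. The mutants have the lowest bars for pcdh1 alpha and gamma (13.1 and 13.3 RPM for gamma) and the highest for pcdh2 gamma (59.3 and 61.6 RPM).

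Of the 19 clustered members tested, 7 passed in the mutants relative to the library labelled UAS:Nr2f5, 1 risen and 6 fallen, where 20.1% of all genes passed, 11.2% risen and 8.92% fallen. pcdh1g32 was at 0.816 and 0.214 RPM in the mutants, 9.91 RPM in the library labelled UAS:Nr2f5 and 4.27 RPM in the control, and it fell in the mutants relative to the library labelled UAS:Nr2f5 (log2 difference −2.88 ± 0.41, limma adjusted p = 0.0108). pcdh1a4 was at 0.433 and 0.282 RPM in the mutants, 4.34 RPM in the library labelled UAS:Nr2f5 and 3.25 RPM in the control, and it fell in the same comparison (−1.98 ± 0.34, limma adjusted p = 0.0172). Against the control these genes did not pass (limma adjusted p = 0.119 and 0.1001), although pcdh1a4 did when only the mutants and the control were fitted (0.0432). That fit called 350 of 11391 genes, where the main fit called 118.

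The other clustered genes that fell against the library labelled UAS:Nr2f5 were pcdh1g26, pcdh2ab6, pcdh2aa15 and pcdh2ac, with log2 differences of −1.53, −1.88, −1.39 and −1.84. All 4 calls were lost with a pseudocount of 0.1. The gene that rose, pcdh1g18, was at 1.89 and 1.30 RPM in the mutants, under 1 read in the library labelled UAS:Nr2f5 and 1.61 RPM in the control (1.36 ± 0.32, limma adjusted p = 0.0359). By size, pcdh2ab9 (7.53 against 1.29 RPM), pcdh1g32 and pcdh2ab6 (4.59 against 1.57 RPM) were at least 2-fold higher in the library labelled UAS:Nr2f5 than in the control. pcdh1g18 and pcdh2ab8 (under 1 read against 2.63 RPM) were at least 2-fold lower there. The mutants disagreed on pcdh2ab9, with 5.18 RPM in mutant 1 and 0.592 RPM in mutant 2.

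The remaining clustered genes passed in no comparison of the mutants. Relative to the library labelled UAS:Nr2f5, pcdh2ab2 passed under 3 alternatives (median-ratio scaling, crest scaling and only the libraries compared), pcdh1g22 under crest scaling and pcdh2ab8 with a pseudocount of 0.1. In the pcdh1 cluster, pcdh1g22 was at 0.452 and 1.12 RPM in the mutants, 2.99 RPM in the library labelled UAS:Nr2f5 and 1.71 RPM in the control, and pcdh1gc5 was at 0.596 and 0.996 RPM in the mutants, 1.18 RPM in the library labelled UAS:Nr2f5 and 1.34 RPM in the control. In the pcdh2 cluster, the tested row of pcdh2ab2 (ENSDARG00000037691) was at 0.001996 and 0.470 RPM in the mutants, 1.92 RPM in the library labelled UAS:Nr2f5 and 2.02 RPM in the control, with a log2 difference from the control of −1.31 ± 0.35 (limma adjusted p = 0.165). A second row of that symbol (ENSDARG00000099468), below the filter, ran the other way, at 1.05 and 0.569 RPM in the mutants and under 1 read in both other libraries. The row of pcdh2ab8 below the filter (ENSDARG00000071905) was likewise at 1.15 and 1.61 RPM in the mutants, 0.167 RPM in the library labelled UAS:Nr2f5 and under 1 read in the control, while its tested row was at 1.35 and 0.664 RPM in the mutants. Whether and how reads were shared out between such rows was not tested. pcdh2g20 was at 4.12 and 4.12 RPM in the mutants, 2.02 RPM in the library labelled UAS:Nr2f5 and 3.26 RPM in the control. pcdh2g29, pcdh2ab12, pcdh2ab10, pcdh2g12 and pcdh2g7 had log2 differences between −0.61 and 0.28 from the control and between −0.58 and 0.65 from the library labelled UAS:Nr2f5.

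Partners of the classical cadherins were read from a list of catenins and junction proteins, of which 16 of 25 were found and 13 tested. In the mutants 0 passed limma against the control (3 had an unadjusted p under 0.05; median log2 difference −0.057, against 0.03 over all genes), and against the library labelled UAS:Nr2f5 1 rose and 4 fell (median −0.28, against 0.17 over all genes), where 11.2% of all genes rose and 8.92% fell. The gene that rose was ctnna1, the alpha-catenin that links cadherins to actin, at 52.1 and 57.4 RPM in the mutants, 29.9 RPM in the library labelled UAS:Nr2f5 and 48.0 RPM in the control (log2 difference 0.85 from the library labelled UAS:Nr2f5, limma adjusted p = 0.02496). The neural forms fell, with ctnna2 at 0.259 and 0.970 RPM in the mutants against 6.22 RPM in the library labelled UAS:Nr2f5 (limma adjusted p = 0.0226), and ctnnd2b at 1.98 and 3.31 RPM in the mutants against 8.49 RPM in that library (limma adjusted p = 0.0426). The vinculin gene vcla and the nectin gene pvrl2l were the others that fell.

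Among 14 tested relatives in the wider cadherin family, 1 gene rose and 1 fell in the mutants against the control, where 0.0263% of all genes rose and 1.01% fell. Against the library labelled UAS:Nr2f5, 2 rose and 7 fell, where 11.2% of all genes rose and 8.92% fell. The median log2 differences of the 14 were −0.96 from the control, against 0.03 over all genes, and −1.19 from the library labelled UAS:Nr2f5, against 0.17. The planar polarity cadherin gene celsr1b was at 2.87 and 1.63 RPM in the mutants, 16.8 RPM in the library labelled UAS:Nr2f5 and 16.1 RPM in the control, and it fell against the control (−2.42, limma adjusted p = 0.0477). The gene that rose against the control was ret, a receptor tyrosine kinase with cadherin-like repeats. fat1a and dchs1a, which code for very large atypical cadherins, rose against the library labelled UAS:Nr2f5, dchs1a being at 26.3 and 23.3 RPM in the mutants, 9.87 RPM in that library and 15.3 RPM in the control. Those that fell there were celsr1b, celsr2, celsr3, clstn1, clstn3, fat2 and the desmosomal cadherin gene dsg2.1. The epithelial gene dsg2.1 was at 0.345 and 0.353 RPM in the mutants, 6.22 RPM in that library and 2.20 RPM in the control. Without the library labelled UAS:Nr2f5, fat2, clstn3 and dsg2.1 would lie below the filter, so their direction is partly set by it.

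Of 12 genes for cadherin repressors and cadherin-cutting proteases, 0 passed limma in the mutants against the control (3 had an unadjusted p under 0.05; median log2 difference 0.54, against 0.03 over all genes). Like the marker, partner and relative lists, this list was chosen with earlier results of these data known, so its counts are descriptive only. Against the library labelled UAS:Nr2f5, 6 rose and 0 fell, where 11.2% of all genes rose and 8.92% fell, and the median was 1.00, against 0.17 over all genes. These were snai1a, snai2, twist1a, twist1b, twist2 and zeb1a, which code for transcription factors known to repress E-cadherin as cells turn into mesenchyme. snai2 was at 45.8 and 37.2 RPM in the mutants, 11.2 RPM in the library labelled UAS:Nr2f5 and 19.9 RPM in the control (log2 difference 1.80 from the library labelled UAS:Nr2f5, limma adjusted p = 0.00707). zeb1a was at 13.1 and 12.7 RPM in the mutants, 4.44 RPM in the library labelled UAS:Nr2f5 and 11.4 RPM in the control. Both genes lay lowest in the library in which cdh1 was highest, and no relation between them was tested.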

How the data were processed

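RNA-seq values of 4 libraries were taken from 1 table, deposited by the authors and called TPM in its name. They were treated as RPM as deposited by the authors, because most low values in a library are multiples of 1 step whatever the gene (88.4% to 94.0% within 0.02 read between 0.5 and 1000 reads). TopHat2, Partek and GRCz10 are named, per the submitters' processing notes, while their roles, versions and the annotation are not given in the sources used here. The members and gene lists were chosen with earlier results of these data known. Genes averaging 1 RPM or more were tested as log2(RPM + 1) with limma 3.58.1 in R 4.3.3 (1 mean per group, all 4 libraries, trend), with Benjamini-Hochberg adjustment over 11391 genes and 0.05 as the threshold, and the script was tested on simulated data. This fit, written for TPM, serves RPM as well. Ratios of single libraries carry exact Clopper-Pearson 95% intervals on implied reads, and a count of 0 was taken to allow 3 reads; both cover counting error only, since reads without molecular identifiers are not independent. Whole reads were not recovered for all genes, so no count model was run. Values were given for every tested member of the fixed lists and for other members called or 2-fold apart. For partners, relatives and repressors, the genes called were named. Alternatives were other pseudocounts (0.1, 0.5), filters (none, 5 RPM), scalings, fits and leaving out each mutant. No gene sequences were used here.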

Additional observations from a re-analysis of the deposited data

How the results depend on the processing

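No paired analysis was possible because only the mutants have a second library. Against the control, the 0 members called by limma became 1 with a minimum mean of 5 RPM (cdh6) and 1 with only the libraries of the 2 groups (pcdh1a4). Over all genes, these settings called 413 of 5294 and 350 of 11391, and the main fit 118 of 11391. By size on the log2(RPM + 1) scale, 6 were at least 2-fold apart in both mutants, and 11 without mutant 1 and 8 without mutant 2 were at 2-fold. Against the library labelled UAS:Nr2f5, the 15 became 9 with a pseudocount of 0.1 (6 risen and 3 fallen, 8 shared with the 15). They became 7 with a minimum mean of 5 RPM (7 risen and 0 fallen, 3 shared with the 15). No member that fell in the main fit reached that minimum, the highest being cdh1 with a mean of 4.15 RPM. The 15 became 0 with no filter, and 8 among whole-read members, a choice made after seeing the data. Over all genes, 1449 of 11391 passed with that pseudocount and 1921 of 5294 with the 5 RPM filter. With no filter 0 of 22546 genes passed. Leaving out a mutant gave 16 to 18 members at 2-fold, and the other alternatives 13 to 16. For the library labelled UAS:Nr2f5 over the control, the 10 became 17 with no filter, 1 with a minimum of 5 RPM and 5 among whole-read members. The 5 RPM filter left 11 members to test. The 2-fold counts with a mutant left out or under these other settings have no share over all genes beside them. They are not read as a result about the members. Median-ratio scaling moved the median gene by −0.20 in the mutants against UAS:Nr2f5 and by 0.15 in UAS:Nr2f5 against the control, and crest scaling by −0.63 and 0.31. Crest scaling moved it by −0.30 in the mutants against the control. Differences of the mutants changed sign under these scalings and, in 14 cases, when a mutant was left out, none in a value that had passed the threshold. Without mutant 1 these were 3 against the control and 5 against UAS:Nr2f5, and without mutant 2 they were 5 and 1. They include pcdh2ab9 (−0.53 without mutant 1, 0.45 with both) and cdh17 (0.56 without mutant 2, −0.22 with both) against the control. Against the control, pcdh18b was −0.029 with median-ratio and −0.34 with crest scaling, and under crest scaling pcdh1b was −0.29, pcdh10b −0.068, pcdh2g20 −0.0195 and cdh10a −0.0201. Against UAS:Nr2f5, pcdh19 was −0.13 and pcdh2g7 −0.067 with median-ratio scaling. Under crest scaling there, cdh11 was −0.19, pcdh18b −0.15, pcdh2g16 −0.14, pcdh19 −0.58, pcdh10b −0.16, cdh7 −0.027, pcdh17 −0.30 and pcdh2g7 −0.33. The cause was not tested. The library labelled UAS:Nr2f5 has the fewest reads and limits the low members most.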

Other observations

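The table holds 8 more cadherin and protocadherin rows whose symbols are in capitals and which the rule leaves out. Of these 3 were at 0 in all libraries and 3 had a mean of at least 1 RPM. PCDH9, a delta protocadherin known from brain, was at 1.58 and 4.32 RPM in the mutants, 3.55 RPM in the library labelled UAS:Nr2f5 and 1.202 RPM in the control, so the mutants lay on either side of the library labelled UAS:Nr2f5. CDH26, an epithelial cadherin in mammals, was at 0.776 and 0.0882 RPM in the mutants, 2.27 RPM in the library labelled UAS:Nr2f5 and 1.70 RPM in the control, and the mutants were the lowest, as for cdh1. CDH19, known in the chick and mammals from crest-derived glial precursors, was at 1.58 and 1.72 RPM in the mutants, 1.09 RPM in the library labelled UAS:Nr2f5 and 0.935 RPM in the control. None of the 3 passed limma in the mutants against the control (adjusted p = 0.628, 0.376 and 0.645) or against the library labelled UAS:Nr2f5 (0.708, 0.07403 and 0.473).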
